A study of Mus musculus with 6 samples.

Results

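Class switch recombination and DNA break repair are described here through 32 genes, chosen by symbol in the probe annotation for their steps in switching, out of 19057 genes named on the array. The rule of that choice used no values of the arrays, though earlier results of these data were known when it was made. RNA came from mouse splenic follicular B cells, the recirculating mature B cells, selected by an antibody to CD23. TAT-CRE cells, in which a Cre recombinase carried into the cell by a short peptide was used to delete the floxed Yy1 gene, were set against mock-treated cells. All 3 mice were C57BL/6 with both Yy1 alleles floxed (yy1 f/f), each spleen was divided between the 2 treatments, and both portions then grew for 72 hours in RPMI with lipopolysaccharide, interleukin 4, OPI and 20% serum. That gave 3 TAT-CRE and 3 mock samples with 1 bead array each. TAT-CRE treatment as such and the loss of Yy1 cannot be told apart here, as all samples carry the floxed alleles, and the sources used here do not give the ages of the mice. The study's stated question was what Yy1 does in class switching.

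Switching exchanges the constant region of the antibody heavy chain. Cytosines in the switch regions are turned into uracil while these are transcribed, and base excision and mismatch repair turn the uracils into strand breaks. The ATM kinase and chromatin-bound factors mark the breaks, 53BP1 and RIF1 protect the ends from resection, and non-homologous end joining unites 2 distant switch regions.

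Of the 32 genes, 31 had a probe and Dclre1c (Artemis, the end-trimming nuclease) had none under that symbol. The 31 genes had 68 probes, between 1 and 5 each, and 48 probes of 27 genes lay above background on at least 3 of the 6 arrays and were tested. The 20 other probes read between 107.4 and 234.5 in deposited intensity, 16 of them above background on no array and 4 on 1 array. They left Mdc1, Paxip1, Xrcc5 and Xrcc4 without a tested probe, so nothing is said of the levels of these 4 genes.

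The deletion was visible at the Yy1 probe, which read 153.2, 140.4 and 133.8 after TAT-CRE and 455, 408.9 and 439.2 after mock treatment in mice 1, 2 and 3. No TAT-CRE value exceeded background, so Yy1 was at least 2.49-fold lower, and where its probe lies relative to the floxed segment is unknown here. Log2 values of 2 arrays correlated at 0.989 or above within TAT-CRE, at 0.974 or above within mock and at 0.964 or above between treatments, and each array had 39.9% to 44.5% of its probes above background. The B cell marker genes Cd79b, Ms4a1, Cd22 and Fcer2a (CD23) had 8 of 9 probes above background, with a summed intensity of 55884 to 59959 on TAT-CRE arrays and 42843 to 58870 on mock arrays. Most of each sum came from Cd79b. At the brightest probe Cd79b differed by 0.52, Ms4a1 by 0.51, Cd22 by 0.15 and Fcer2a by -0.25, and none passed (limma adjusted p of 0.0737 or above). One of the 3 Fcer2a probes fell by 0.58 on the log2 scale (limma adjusted p = 0.0465), a call lost without any 1 mouse (adjusted p between 0.0547 and 0.261). Of the probes for other cells, T cell markers had 1 of 10 above background on any array, NK cell markers 1 of 3, granulocyte markers 0 of 6, monocyte and macrophage markers 5 of 10, erythroid markers 5 of 6 and dendritic markers 1 of 7. The dendritic probe, for Siglech, rose by 1.16 (limma adjusted p = 0.000534), while the other Siglech probes were above background on no array. The part of these markers in the results was not tested.

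At the brightest tested probe of each gene, 4 of the 27 genes fell in TAT-CRE cells and none rose. The 4 were Ung, Apex1, Nbn and Prkdc, each lower in all 3 mice. Over all 9942 genes, 7.51% were called lower and 7.42% higher by the same limma test with Benjamini-Hochberg adjustment at 0.05. The median log2 difference of the 27 genes was -0.05, against 0.02 over all genes. At an unadjusted p under 0.05, 5 genes were lower, where 14.5% of all genes were, and 1 was higher, where 14.6% were. Beside the 4 called, these were Mad2l2, lower, and H2ax, higher.

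**Figure D1:**
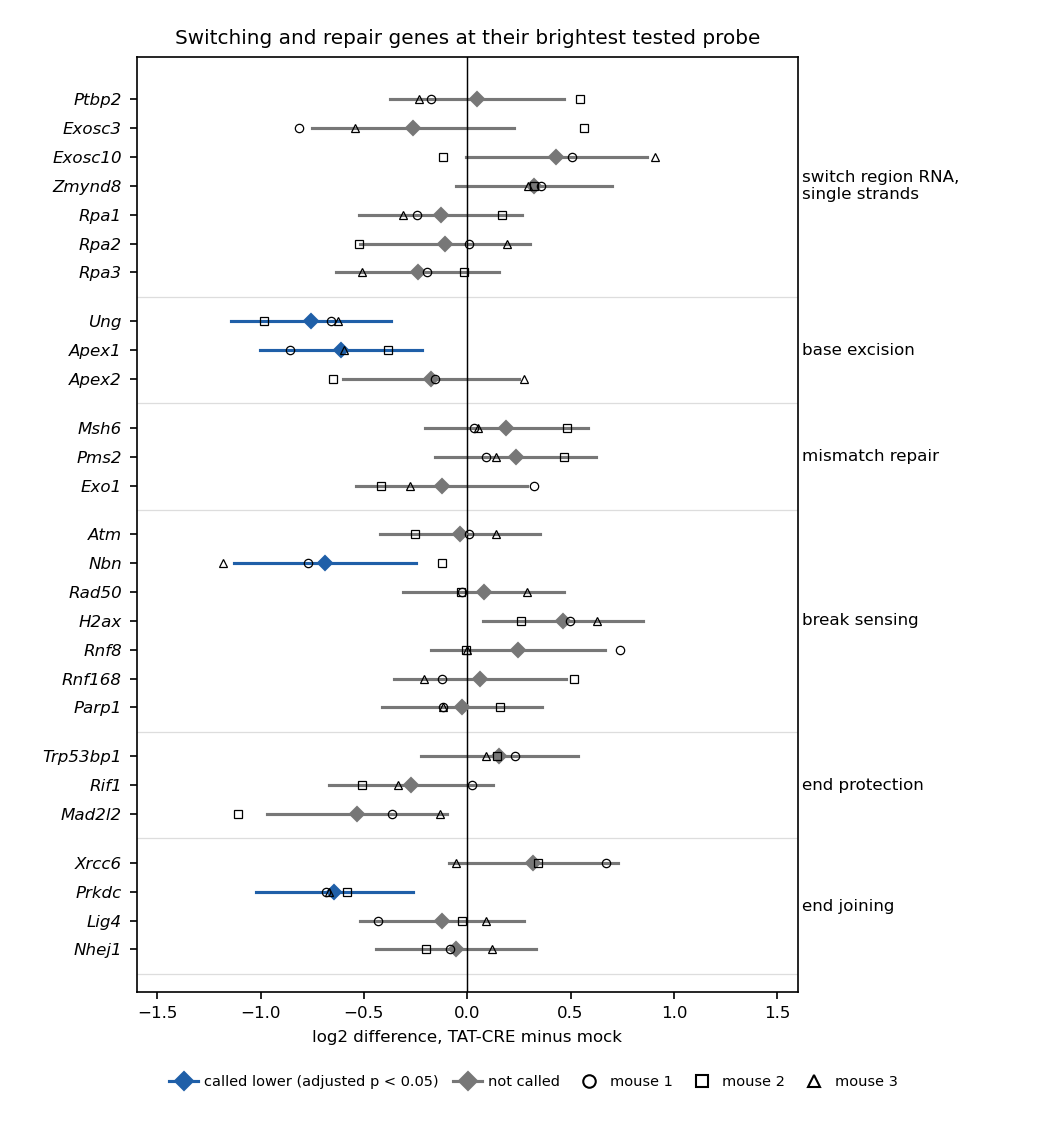
Log2 difference, TAT-CRE minus mock, of the 27 genes at their brightest tested probe, grouped by step of switching. Diamonds and bars are the limma estimate and its 95% confidence interval, open symbols are the 3 mice. The diamonds of Ung, Apex1, Nbn and Prkdc, coloured as called lower, lie between -0.76 and -0.61, and no gene was called higher.

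Counted over probes, 6 of 48 fell, 12.5%, and 2 of 48 rose, 4.17%, where 7.14% of all 19240 tested probes fell and 6.55% rose. The lower ones were those of Ung, Apex1 and Nbn above, both of Prkdc, and a second probe of Rif1. The higher ones belonged to Exosc10 and Rpa2 and were not the brightest of their genes. TAT-CRE and mock values did not overlap at 9 member probes that were lower and 4 that were higher, and over the array at 15.5% and 16.4% of tested probes. At the brightest probe 6 of 27 genes were lower in all 3 mice and 5 higher in all 3, against 23.7% and 26.1% of all genes.

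In base excision, 2 of 3 genes fell, Ung and Apex1, where 7.51% of all genes were called lower. Among 13 other base excision and mismatch repair genes tested, 1 was called lower and 4 lay below 0. The sequences before Ung and Apex1 are shown because the 2 genes act in succession and both fell. The 250 bases before the RefSeq start of each gene were read from RefSeq's GRCm38.p6 promoters, Ung at chr5:114130185-114130434 and Apex1 at chr14:50924699-50924948, both on the plus strand. Capitals would mark AANATGGC, the core of the motif bound by YY1, searched on both strands with N for any base, and neither stretch has any.
Ung: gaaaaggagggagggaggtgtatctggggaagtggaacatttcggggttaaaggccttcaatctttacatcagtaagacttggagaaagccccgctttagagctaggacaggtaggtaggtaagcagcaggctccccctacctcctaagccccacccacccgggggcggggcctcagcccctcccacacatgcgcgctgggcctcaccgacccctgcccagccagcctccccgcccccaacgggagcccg
Apex1: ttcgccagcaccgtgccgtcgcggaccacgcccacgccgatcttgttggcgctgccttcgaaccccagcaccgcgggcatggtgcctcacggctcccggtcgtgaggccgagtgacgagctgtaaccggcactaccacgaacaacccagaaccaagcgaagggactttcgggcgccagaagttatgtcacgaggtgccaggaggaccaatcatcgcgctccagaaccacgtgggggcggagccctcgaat

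Ung, the glycosylase that removes uracil from the deaminated switch region, read 1220.3, 881.4 and 1219.0 in the TAT-CRE cells of mice 1, 2 and 3, against 1871.2, 1652.1 and 1829.0 in their mock cells. Every TAT-CRE value lay below every mock value. The log2 difference was -0.76 ± 0.18 (SE, 95% confidence interval -1.14 to -0.37, limma adjusted p = 0.0111), or 1.69-fold lower, and the 3 mice gave -0.66, -0.98 and -0.62. This call held without any 1 of the mice, with adjusted p between 0.0138 and 0.0444. Among the other tested Ung probes, both dim, the differences were -0.54 and -0.53, with adjusted p of 0.119 and 0.101. In the first of these mock 2 stood apart, at 321.2 beside 192.5 and 224.3 in mock 1 and 3, and without mouse 2 the difference was -0.19.

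Apex1, the endonuclease that nicks the abasic site left by uracil removal, had 1 probe. It read 887.9, 894.9 and 1005.0 in TAT-CRE cells and 1531.0, 1140.4 and 1470.4 in mock cells of mice 1, 2 and 3, and the groups did not overlap. Apex1 was 1.53-fold lower (log2 difference -0.61 ± 0.19, SE, limma adjusted p = 0.0366). The call was lost without mouse 1 (-0.49, adjusted p = 0.201) or mouse 3 (-0.62, adjusted p = 0.156). Apex2, the related endonuclease, was above background on 1 TAT-CRE and 2 mock arrays at its tested probe, and its difference of -0.18 (-0.60 to 0.25) did not pass.

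Mismatch repair genes gave no call. Msh6, a subunit of a mismatch recognition complex, differed by 0.19 (-0.21 to 0.58) and 0.31 (-0.08 to 0.70) at its 2 probes. Both were higher in all 3 mice and neither passed (adjusted p = 0.563 and 0.297). Pms2, a subunit of the MutL endonuclease, differed by 0.23 (-0.16 to 0.62, adjusted p = 0.454). Exo1, the exonuclease that resects from the nick, was close to background at 199.6, 178.6 and 180.9 in TAT-CRE cells and 178.2, 207.3 and 199.4 in mock cells, with a difference of -0.12 (-0.54 to 0.29).

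In break sensing, Nbn was the gene that fell. It encodes NBS1, the member of the MRE11, RAD50 and NBS1 complex that brings ATM to breaks. Its brightest probe read 230.5, 234.6 and 194.7 in TAT-CRE cells, against 327.3, 247.0 and 323.6 in mock cells of mice 1, 2 and 3. Background lay between 169.2 and 178.2 on the 6 arrays. The groups did not overlap, but mouse 2 contributed little, with a log2 difference of -0.12 beside -0.77 in mouse 1 and -1.18 in mouse 3. The fit gave -0.69 ± 0.21 (SE, limma adjusted p = 0.0362), or 1.61-fold lower. The call was lost without mouse 1 (adjusted p = 0.0621), without mouse 3 (-0.44, adjusted p = 0.370) and without background correction (-0.44, adjusted p = 0.0742), and without mouse 2 the difference was -0.97 (adjusted p = 0.000691). A second Nbn probe differed by -0.08 (-0.51 to 0.35), with TAT-CRE values of 204.7, 225.3 and 221.5 inside the mock range of 198.9 to 263.8.

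The partners of Nbn gave mixed values. Rad50, the structural ATPase of the complex, differed by 0.08 (-0.31 to 0.47) at its brightest probe and by -0.40 (-0.80 to 0.01) at a dimmer one, whose TAT-CRE values of 190.4, 207.8 and 208.9 all lay below the mock values of 260.8, 227.7 and 224.3. Neither passed (adjusted p = 0.830 and 0.192). The nuclease gene Mre11a, which is not one of the 32, differed by -0.08, -0.56 and -0.45 at its 3 tested probes, again without a call (adjusted p = 0.820, 0.0607 and 0.148).

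Atm, the kinase that the complex activates, was the member whose probes agreed most closely on a small difference. Its 3 tested probes gave -0.03 (-0.42 to 0.35), -0.09 (-0.47 to 0.29) and -0.06 (-0.45 to 0.33). H2ax, the histone variant that ATM phosphorylates around a break, was on the higher side in every mouse. It read 2595.5, 2354.2 and 2838.0 in TAT-CRE cells and 1866.3, 1981.3 and 1870.1 in mock cells of mice 1, 2 and 3. The groups did not overlap and the difference was 0.46 (0.07 to 0.85), which did not pass over all probes (limma adjusted p = 0.109). It did pass on deposited values without background correction (0.44, adjusted p = 0.0442).

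The ubiquitin ligase genes downstream of that mark were not called. Rnf8 differed by 0.24 and 0.09 at its 2 probes, and mock 1, at 712.4, stood below the 5 other arrays of the brighter one, which read between 1095.1 and 1151.4. Rnf168, which extends the ubiquitin mark on histone H2A, differed by 0.06 (-0.35 to 0.48). Parp1, a sensor that adds ADP-ribose chains at breaks, differed by -0.03 (-0.41 to 0.36) at its brightest probe, by 0.29 at the next and by -0.49 (-0.91 to -0.07) at the dimmest. The dimmest read 446.3, 425.7 and 482.5 in TAT-CRE cells, below 525.0, 754.4 and 535.1 in mock cells, and did not pass (adjusted p = 0.1197).

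End protection held 1 call, at a second probe. Rif1, the factor that 53BP1 recruits to keep ends from resection, read 177.7, 279.7 and 203.2 in TAT-CRE cells at that probe, against 323.5, 317.5 and 278.9 in mock cells of mice 1, 2 and 3. The groups overlapped, since TAT-CRE 2 lay just above mock 3, and all 3 mice were lower, with differences of -1.44, -0.27 and -0.75. The -1.44 of mouse 1 rested on a TAT-CRE value of 177.7, just above the background of 173.7 on that array. The log2 difference was -0.82 ± 0.21 (SE, limma adjusted p = 0.0170). It was -0.50 without background correction (adjusted p = 0.0466), -0.51 without mouse 1 (adjusted p = 0.177), and the adjusted p was 0.0508 without the mouse as a block. At the brightest Rif1 probe the values were 379.0, 332.8 and 341.8 in TAT-CRE cells and 374.6, 434.1 and 406.8 in mock cells, a difference of -0.27 (-0.67 to 0.12) that did not pass.

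Trp53bp1, which encodes 53BP1, went both ways. Its brightest probe differed by 0.16 (-0.23 to 0.54) and was higher in all 3 mice. Its second probe differed by -0.43 (-0.81 to -0.05) and was lower in all 3, at 551.8, 633.3 and 680.8 in TAT-CRE cells against 738.3, 845.4 and 830.3 in mock cells. None of its 3 probes passed (adjusted p = 0.630, 0.128 and 0.717). Mad2l2, which encodes the REV7 subunit of the shieldin complex that caps protected ends, read 738.3, 549.5 and 602.6 in TAT-CRE cells and 924.0, 1077.6 and 651.0 in mock cells. The 3 mice gave -0.36, -1.11 and -0.13, the groups overlapped, and the difference of -0.53 (-0.97 to -0.10) did not pass (adjusted p = 0.0987).

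In end joining, Prkdc fell at both of its probes, and it was the only member with more than 1 called probe. It encodes the catalytic subunit of DNA-PK, the kinase that holds the joining complex on the ends. The brighter probe read 387.5, 379.2 and 389.3 in TAT-CRE cells, against 565.7, 521.4 and 563.6 in mock cells of mice 1, 2 and 3. These were the tightest values of the called probes, with differences of -0.68, -0.58 and -0.67 in the 3 mice. The fit gave -0.64 ± 0.18 (SE, 95% confidence interval -1.02 to -0.26, limma adjusted p = 0.0241), or 1.56-fold lower.

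At the second Prkdc probe the arrays read 319.1, 342.3 and 401.5 in TAT-CRE cells and 449.6, 535.3 and 471.1 in mock cells, again without overlap. Its difference was -0.59 ± 0.19 (SE, limma adjusted p = 0.0448). Both calls were lost without some of the mice, while the differences moved by less than 1.5 times. Without mouse 1 or 3 the brighter probe gave -0.62 and -0.63 (adjusted p = 0.0769 and 0.146). Without mouse 1, 2 or 3 the second probe gave -0.56, -0.48 and -0.74 (adjusted p = 0.125, 0.172 and 0.0707), and with estimated array weights its adjusted p was 0.0596.

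Other end joining members were not called. Xrcc6, which encodes Ku70 of the end-binding Ku ring, differed by 0.32 (-0.09 to 0.73), 0.07 and -0.18 at its 3 probes. Lig4, the ligase that seals the joint, read 195.9, 189.7 and 201.9 in TAT-CRE cells and 231.6, 191.6 and 195.1 in mock cells, a difference of -0.12 (-0.52 to 0.27). Nhej1, the ligase's XLF cofactor, differed by -0.05 (-0.44 to 0.33). Both of these were near background. Xrcc5 (Ku80) and Xrcc4, the ligase partner, had no probe above background on 3 arrays.

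**Figure D2:**
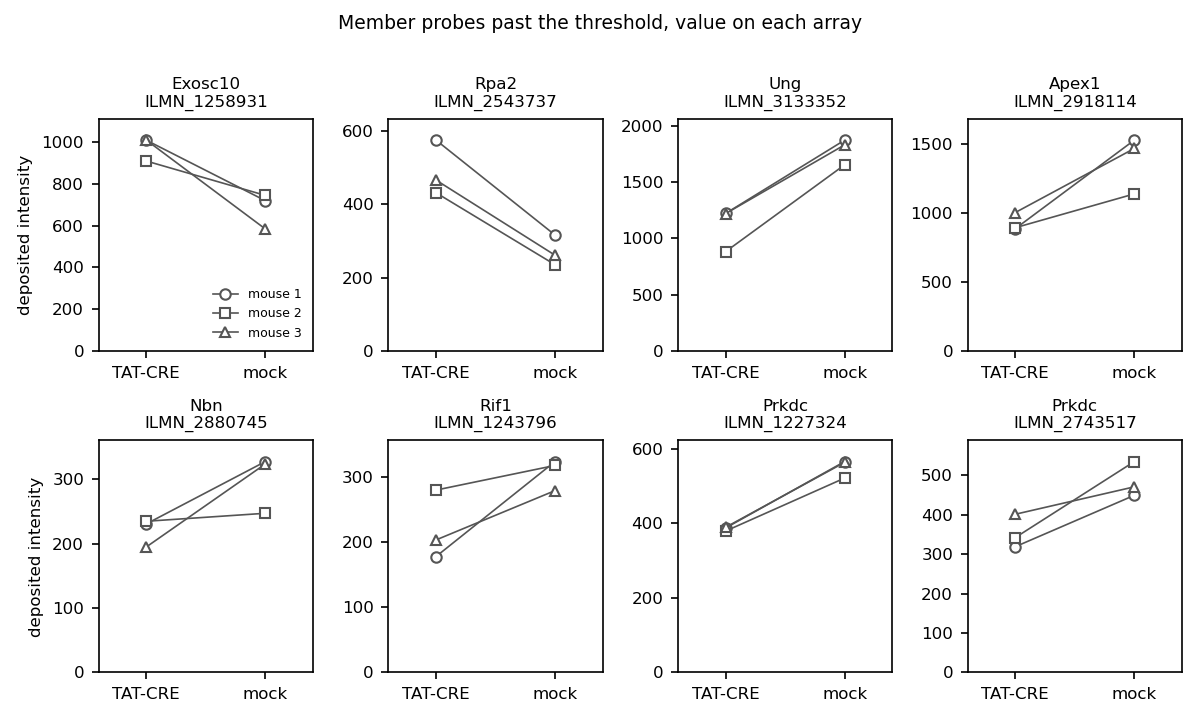
Deposited intensity on each array, linear axis from 0, of the 8 member probes with an adjusted p under 0.05, with TAT-CRE left and mock right and a line for each mouse. All 3 lines run the same way in every panel, and TAT-CRE and mock values overlap in the Rif1 panel alone.

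Among the genes for switch region RNA and single strands, Exosc10 rose at 1 of 2 probes. It encodes a 3′ to 5′ ribonuclease of the nuclear RNA exosome, which degrades switch region transcripts. That probe read 1008.7, 909.0 and 1009.2 in TAT-CRE cells and 719.2, 744.5 and 583.7 in mock cells of mice 1, 2 and 3, without overlap. It was 1.51-fold higher (log2 difference 0.59 ± 0.19, SE, limma adjusted p = 0.0463). The call was lost without mouse 1 (0.61, adjusted p = 0.0843), without mouse 3 (0.44, adjusted p = 0.383) and with cyclic loess (0.58, adjusted p = 0.0518). The brighter Exosc10 probe differed by 0.43 (-0.01 to 0.87, adjusted p = 0.190) and went to -0.12 in mouse 2, and it passed without that mouse (0.71, adjusted p = 0.0233).

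Exosc3, a cap subunit of the exosome, lay on the other side, at 270.9, 350.0 and 331.5 in TAT-CRE cells and 405.4, 266.6 and 440.2 in mock cells. Its difference of -0.26 (-0.75 to 0.23) joined -0.81 and -0.54 in mice 1 and 3 with 0.57 in mouse 2. Without mouse 2 it was -0.68 and passed (adjusted p = 0.0313). The 7 other exosome subunits tested and the exosome helicase gene Mtrex, listed as related genes, were all below 0 at their brightest probe, from -0.46 for Exosc7 to -0.13 for Exosc9, and none passed. The list of other switching cofactors that these genes belong to, as a whole, had 12 of 14 genes below 0, where 48.2% of all genes were.

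Replication protein A, the trimer that coats single-stranded DNA, was read for all 3 subunits. Rpa1 differed by -0.13 (-0.52 to 0.27) and Rpa3 by -0.24 (-0.63 to 0.15). Rpa2 differed by -0.11 (-0.52 to 0.30) and -0.12 (-0.55 to 0.32) at the 2 probes annotated to its RefSeq transcript. Another probe, annotated to a separate cDNA record, rose, at 574.8, 431.3 and 465.9 in TAT-CRE cells and 316.0, 235.1 and 261.0 in mock cells. It was 2.25-fold higher (log2 difference 1.17, 0.79 to 1.55, limma adjusted p = 0.000369), and the lowest of the 3 mice was mouse 1 with 1.11. This call passed in all 15 alternatives that had the probe, with differences of at least 0.86. Its interval did not overlap those of the other Rpa2 probes, and which part of the transcript each probe reads is unknown here.

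The bases before the Rpa2 start are shown because they hold the motif searched. They lie on GRCm38.p6 at chr4:132768110-132768359, plus strand, from RefSeq, with AAGATGGC in capitals, starting at position -183 relative to the gene start.
Rpa2: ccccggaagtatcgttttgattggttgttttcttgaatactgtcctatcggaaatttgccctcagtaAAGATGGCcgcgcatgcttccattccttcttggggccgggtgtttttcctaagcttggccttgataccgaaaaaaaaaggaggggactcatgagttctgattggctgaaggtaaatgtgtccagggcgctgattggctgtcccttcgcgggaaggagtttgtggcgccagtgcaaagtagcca

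RefSeq promoters, from 250 bases before to 50 after the start, were at hand for 25 of the 32 genes, 32 promoters in all. The 7 genes without one were Apex2, Exo1, Rad50, H2ax, Nbn, Rif1 and Prkdc. Nbn, Rif1 and Prkdc, each with a lower call, were thus not searched. Of the 32 promoters, 4, or 12.5%, held AANATGGC on either strand. They belonged to Rpa2, Zmynd8 and Exosc10, with Zmynd8 counted at more than 1 of its alternative promoters. The motif stood in 6.05% of all 32851 promoters and in 8.64% of those of tested genes. Counted by gene, 3 of 25 members held it, near the share of tested genes, 853 of 8117. In promoters of genes called lower at their brightest probe over the array the share was 18.0%, and in those of genes called higher 7.98%. A match is a run of letters and was not tied to binding here.

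Zmynd8 and Ptbp2 completed that step without a call. Zmynd8, a chromatin reader that binds the super-enhancer downstream of the heavy chain locus and is needed for switching in mouse B cells, differed by 0.32 (-0.06 to 0.70) at its brightest probe, where the mice gave 0.36, 0.32 and 0.29. Its other 2 probes differed by -0.16 and -0.35, and none passed (adjusted p = 0.266, 0.643 and 0.245). Ptbp2, an RNA-binding protein reported to bind switch transcripts, read 160.8, 239.4 and 175.8 in TAT-CRE cells and 169.4, 193.4 and 190.5 in mock cells, near background.

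**Figure D3:**
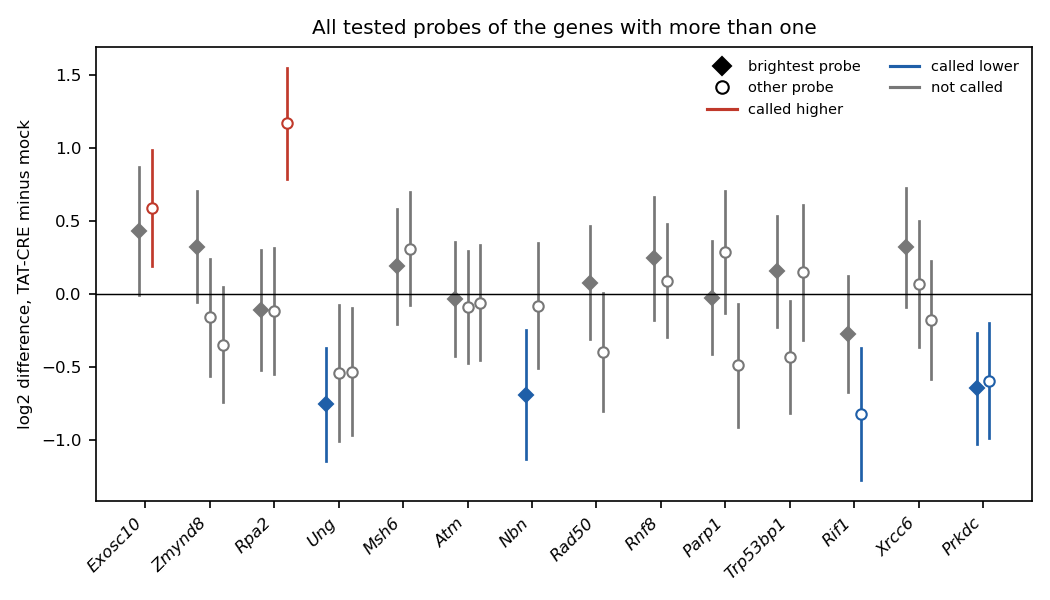
Log2 difference, TAT-CRE minus mock, with 95% confidence intervals, of every tested probe of the 14 member genes that had more than 1. Diamonds are the brightest probe of a gene and open circles the others, coloured by call. Probes of Prkdc and Atm lie closest together, within 0.05 and 0.06, while those of Rpa2 span 1.29.

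Agreement between probes of a gene limits what can be said of single members. Of the 14 genes with several tested probes, 8 had all probes on the same side of 0, or 57.1%, against 60.7% of 3878 such genes over the array. The range between the probes of a gene had a median of 0.49 in the list and 0.29 over the array. Rpa2 had the widest range, 1.29, and Parp1 the next, 0.77. Prkdc, at 0.05, and Atm, at 0.06, had the narrowest.

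Spread between arrays was larger in mock cells. The median SD of the 48 member probes was 0.15 in TAT-CRE and 0.25 in mock cells on the log2 scale, against 0.15 and 0.23 over all tested probes. Mock values were the more variable at 33 of 48 member probes, 68.8%, and at 67.2% of all. Member genes had a median difference of -0.08, -0.03 and -0.05 in mice 1, 2 and 3, where all genes had 0.0040, 0.039 and 0.00021. In these mice 15, 16 and 15 of the 27 lay below 0, against 49.7%, 46.8% and 49.9% of all genes.

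**Figure D4:**
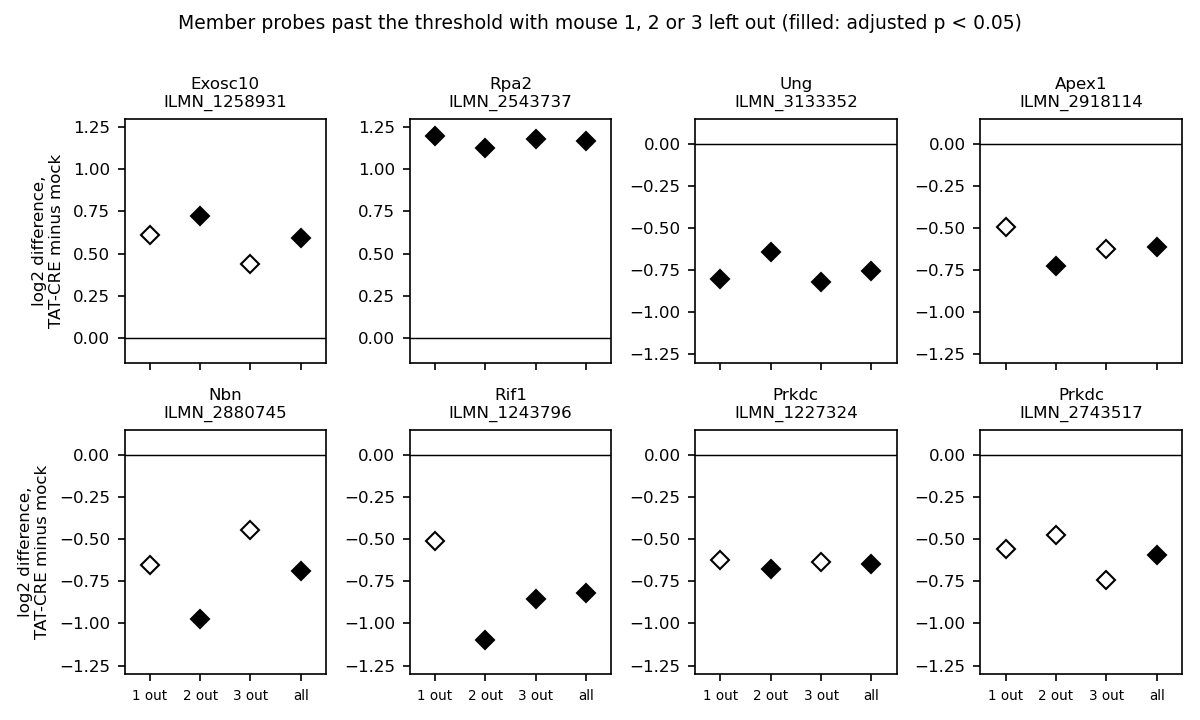
Log2 difference, TAT-CRE minus mock, of the 8 called member probes with mouse 1, 2 or 3 left out and with all mice, filled where the limma adjusted p was under 0.05. Ung and the Rpa2 probe stayed past the threshold in every case. The other 6 lost the call without at least 1 mouse.

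Related genes of the same steps gave few calls. Of 63 such genes 53 had a probe and 48 were tested, with a median of -0.04. At the brightest probe 1 of the 48 fell and none rose, where 7.51% of all genes were called lower and 7.42% higher. The gene that fell was Polb, the polymerase that fills the gap in base excision repair after the APEX1 cut. In its list of other base excision and mismatch repair genes, 4 of 13 lay below 0 and the median was 0.12. Polb differed by -0.67 ± 0.18 (SE, limma adjusted p = 0.0217), at 312.8, 270.2 and 292.6 in TAT-CRE cells and 475.7, 401.5 and 360.5 in mock cells of mice 1, 2 and 3, and the call was lost without mouse 1 or 2 (adjusted p = 0.0856 and 0.0581). At other probes, the end joining factor gene Ercc6l2 fell by 0.93 (adjusted p = 0.00557) and Ube2n, the ubiquitin-conjugating partner of RNF8 and RNF168, rose by 0.78 (adjusted p = 0.0111). The Ercc6l2 call was lost without mouse 3 (adjusted p = 0.0536) and the Ube2n call without mouse 2 (adjusted p = 0.0518). The brightest Ercc6l2 probe differed by 0.06 and the brightest Ube2n probe by 0.50, and neither passed (adjusted p = 0.881 and 0.0940). No gene was called at its brightest probe among 14 other switching cofactors, 7 genes of break signalling and end protection, 6 of end joining and 8 of resection, homologous recombination and alternative end joining.

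Several of these repair genes are also expressed with DNA replication, so proliferation genes are given beside them. Of 12 tested, 2 fell and none rose at the brightest probe, where 7.51% of all genes were called lower and 7.42% higher. Tk1 fell by 0.86 and Mcm5 by 0.79, and the median of the 12 was -0.14. The Mcm5 call was lost without mouse 3 (adjusted p = 0.0772). At a dimmer probe Tk1 fell by 0.95 (limma adjusted p = 0.00352), a call that held without any 1 of the mice. A dimmer Tyms probe rose by 0.75, while the brightest Tyms probe differed by 0.25 and did not pass. Summed over the 31 probes of the list, intensity lay between 75986 and 84798 on the TAT-CRE arrays and between 85548 and 94019 on the mock arrays. Such a sum weighs bright probes most, and that of Mcm5 averaged 7749.57 in TAT-CRE and 13313.6 in mock cells. At the brightest probe 8 of the 12 genes lay below 0, where 48.2% of all genes did. Top2a differed by 0.44, Ccna2 by 0.20 and Cdk1 by -0.09, without a call. Mki67 and Ccnb1 had no probe under those symbols. The part of proliferation genes in the falls of Ung, Apex1 and the other members was not tested. In bulk RNA, fewer cells of a type and less RNA per cell cannot be told apart, and quantile normalization removes any change in total RNA. With no filter on dim probes, which put 45281 probes in the adjustment, all 6 lower member calls and that of Exosc10 were lost.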

How the data were processed

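RNA of 3 TAT-CRE and 3 mock samples was read on 1 Illumina BeadChip each. Per the submitters' processing notes, GenomeStudio 1.8 was used. The deposited value table holds linear intensities of 45281 probes. Sorted, its 6 columns agree to within 2.1, so these deposited intensities are quantile normalized. A second table, with 12 columns of signals and detection p-values whose names match no sample's labels, was not used. Background on each array was taken as the 95th percentile over 1504 probes for olfactory and vomeronasal receptors.

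In limma 3.58.1 (R 4.3.3), intensities were corrected by normexp with an offset of 16, quantile normalized and turned to log2. The 19240 probes exceeding background on 3 or more of the 6 arrays were tested with lmFit and eBayes, the mouse as a block, two-sided, and Benjamini-Hochberg adjustment over all of them. For counts of genes, each of the 9942 tested genes was read at its brightest tested probe. Of all probes, 34885 have 1 gene in GEO's platform annotation, 18 have several and 10378 have none. The source names give each pair of arrays the same mouse, and the design text divides each spleen between the treatments. Deviations from the group means correlated at 0.119, 0.0255 and 0.0539 within the pairs of mouse 1, 2 and 3.

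The members and lists were chosen with earlier results of these data known. Every member is accounted for, and full values are given for those with a probe at an adjusted p under 0.05. The procedure was run on simulated data with the same spread in both groups, whereas the mock arrays here varied more. That run checked the mean error and the sign of the largest added differences, and set no limit on false calls. Alternatives covered background correction, normalization, filter, block, variance model, array weights and each mouse left out. Promoter letters and coordinates are RefSeq's on GRCm38.p6, and no build is named for the array annotation in the sources used here. Python 3.11.15 and matplotlib 3.10.9 drew the figures.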

Additional observations from a re-analysis of the deposited data

How the results depend on the processing

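The array called 1261 higher and 1374 lower probes, the members 2 and 6, and the member genes at their brightest probe 0 and 4. With no filter on dim probes the array gave 497 and 585, the member probes 1 and 0, and the member genes 0 lower. That setting changed both the number of probes adjusted over and the variance prior, and the cause was not tested further. Cyclic loess left 1 higher member probe. Fitting 1 probe a gene left 0 higher member probes and 887 lower probes over the array. Without background correction, and with estimated array weights, 1 member gene was higher. Leaving out 1 mouse, which in the paired fit is the same as leaving out 1 array, gave 804 to 1248 higher and 848 to 1349 lower probes, 1 to 3 higher and 2 to 7 lower member probes, and 0 to 1 higher and 1 to 5 lower member genes. The lowest counts of lower members came without mouse 1 or 3. Without the mouse as a replicate block the array gave 1186 higher and 1231 lower probes, of which 2321 were called in both fits, and the members 2 and 5, the call lost being that of Rif1. Paired fits with the mouse as a fixed or random block gave the members the same counts, and no call was reversed in any alternative. The number of arrays, and signals near background for Exo1, Apex2, Ptbp2, Lig4 and Nhej1, limit what could be seen. The called probes of Nbn and Rif1 also read low, down to 194.7 and 177.7 in TAT-CRE cells.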
